A study of Rattus norvegicus with 4 samples.

Results

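A window of 1100001 bp on rat chromosome 1 (genome build rn6) was placed to hold the H19-Igf2 and Kcnq1 imprinted domains, and the long non-coding RNA (lncRNA) transcripts that start in it are described here. Members were the transcripts with a mean of 5 or more reads over the 4 libraries, with a library that does not list a transcript counted as 0. 20 transcripts of the window were listed in at least 1 library and 12 of them were members, out of 9894 transcripts with that mean in the whole data set. The libraries came from primary cardiomyocytes of newborn Sprague-Dawley rats, 1 to 2 days old, cultured in M199 medium with 2 mM carnitine, 5 mM creatine and 5 mM taurine in every group. High glucose medium held 33 mmol/l glucose, and normal glucose medium held 5 mmol/l glucose with 28 mmol/l mannitol, which evens out the osmolality. Cells were sampled after 24 h or 48 h, with 1 library for each of the 4 combinations of medium and time. The study uses high glucose to induce oxidative stress and cell death.

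In an imprinted domain a gene is transcribed mainly from the chromosome of 1 parent. H19, a non-coding RNA of the maternal chromosome, and Igf2, a fetal growth factor of the paternal chromosome, share enhancers under a common imprinting control region, and both are known as RNAs of fetal and newborn muscle and heart. In the Kcnq1 domain, named for a cardiac potassium channel gene, an antisense non-coding RNA of the paternal chromosome silences neighbours such as Cdkn1c, a cell cycle inhibitor. RefSeq's annotation of another rat assembly, GRCr8, orders the named genes here as H19, Mir675, Igf2, Mir483, Ins2, Th, Ascl2, Tspan32, Cd81, Tssc4, Trpm5, Kcnq1, Cdkn1c, Slc22a18, Phlda2 and Nap1l4. The deposited tables name no genes, 0 of the 20 identifiers matched that annotation, and coordinates were not carried between builds. The transcripts are therefore given by identifier and rn6 position. Which of them belongs to a named gene, and whether they lie in exons, introns or untranslated regions, was not analysed here. The labelled cell type could not be checked either, since no marker gene is named. In such bulk libraries, fewer cells of a type and less RNA per cell cannot be told apart.

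Levels of 1 transcript in different libraries are given as CPM, counts scaled to the library total that the deposited FPKM values imply, and levels of different transcripts as FPKM, which also divides by transcript length. These totals lay between 11877895 and 15654067, and 1 read was worth between 0.0639 and 0.0842 CPM. Ratios carry exact 95% counting intervals. With 1 library per group the intervals cover the counting of reads and not the spread between cultures, and no p-value is given for a single pair of libraries.

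The 12 members fell into 5 runs along the window when gaps of more than 50 kb parted them. The first run held NONRATT001367.2 (215642888 to 215656135, spliced, 643 nt) and NONRATT001368.2 (215660363 to 215662507, a single block of 2145 nt). The second, 81.9 kb further on, held NONRATT003362.2 (215744405 to 215745948, a single block of 1544 nt) and NONRATT003363.2 (215745789 to 215746158, 330 nt). The third held 6 spliced members between 215881010 and 215979482, among them 3 isoforms with the prefix MSTRG, which marks assembled transcripts. NONRATT001378.2 (216250668 to 216251001, a single block of 334 nt) followed after a gap of 271 kb, and NONRATT003375.2 (216661068 to 216663720, spliced, 1942 nt) after a further 410 kb. 3 members were called single blocks, their span being equal to their length, and the other 9 were called spliced. The 330 nt of NONRATT003363.2 was solved from its count and FPKM, so its call as spliced rests on an inferred length beside a span of 370 nt.

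**Figure D1:**
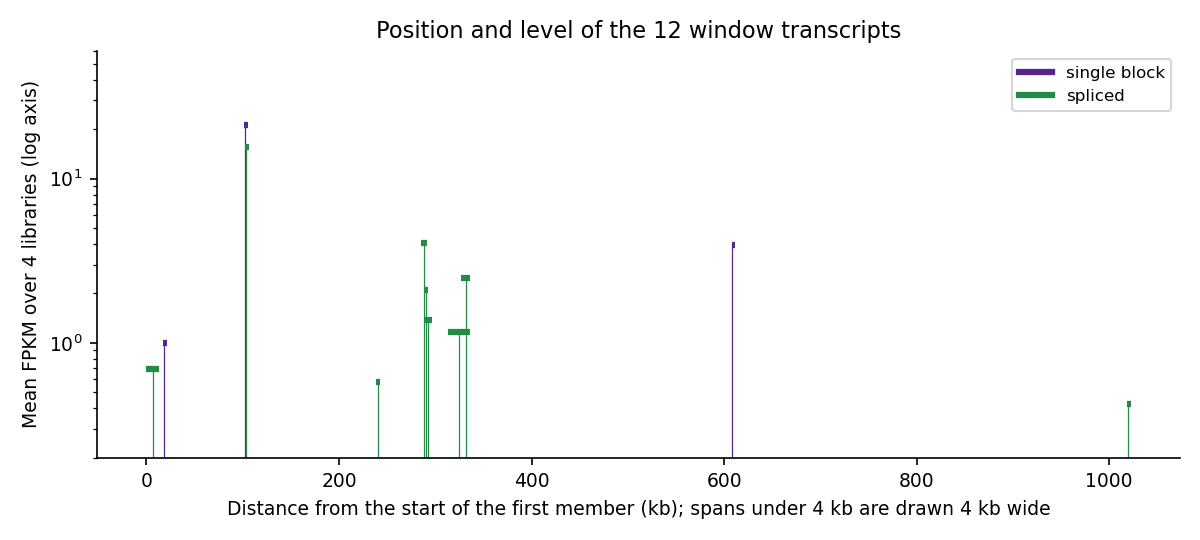
The x axis gives the distance in kb from the start of the first member, and the y axis the mean FPKM over the 4 libraries on a log axis, with 1 horizontal bar per transcript. The 2 transcripts about 100 kb from the left edge, NONRATT003362.2 at 21.1 FPKM and NONRATT003363.2 at 15.6 FPKM, stand above the other 10, which lie between 0.423 and 4.07 FPKM.

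NONRATT003362.2 was the most abundant transcript of the window and held 67.7% of all reads of the members. It had 536 reads in normal glucose and 337 in high glucose after 24 h, and 567 and 364 after 48 h. These counts correspond to 45.1 and 21.5 CPM after 24 h, and to 38.2 and 25.6 CPM after 48 h. Both high glucose libraries lay below both normal glucose libraries, with no overlap. The media were also apart without overlap, in either direction, for NONRATT001368.2, MSTRG.2039.2, NONRATT001367.2, NONRATT001378.2 and MSTRG.2039.4, some of them with few reads. For NONRATT001367.2 the direction after 48 h turned with the scaling. What share of all transcripts is ordered in this way was not computed, so no weight is placed on it. Such an order requires ratios on the same side of 1 at both times. Ratios lay below 1 at both times in 35.4% of all transcripts and above 1 at both in 18.2%. The level of NONRATT003362.2 in high glucose was 0.477 times that in normal glucose after 24 h (95% counting interval 0.415 to 0.548) and 0.670 times after 48 h (0.586 to 0.766). The difference after 48 h was smaller under another scaling, with a log2 ratio of (CPM + 1) of -0.36 by the size factors of DESeq2 and -0.37 by TMM, beside -0.56. The 48 h level was 0.846 times the 24 h level in normal glucose (0.750 to 0.954) and 1.19 times in high glucose (1.02 to 1.38). Its mean count stood above that of 96.0% of the 9894 transcripts.

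Across both times the glucose difference of NONRATT003362.2 did not pass the test. Its log2 change in the fit was -0.82, at an unadjusted p of 0.0135 and an adjusted p of 0.780 (quasi-likelihood test of edgeR with time in the model, Benjamini-Hochberg over 9894 transcripts), and 2 of 2 library pairs showed its direction. Intervals below 1 at both times were found for 2 of the 12 members, this one and NONRATT001368.2, against 3.50% of all transcripts and 11.7% of the 1758 with a mean count of 100 or more, where intervals are narrow.

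NONRATT003363.2, its neighbour, showed another pattern. It had 114 reads in high glucose after 24 h (7.28 CPM) and 198 reads in normal glucose after 48 h (13.3 CPM), and neither the normal glucose library after 24 h nor the high glucose library after 48 h listed it. Against a floor of 3 reads for the library without it, high glucose stood 28.8-fold higher than normal glucose after 24 h. After 48 h it stood 63.2-fold lower. The exact counting intervals, which also cover the counting of the listed library, reached down to 23.1-fold after 24 h and 50.9-fold after 48 h. Compared over time against the same floor, the 48 h library was 52.8-fold higher in normal glucose but 34.5-fold lower in high glucose. The exact intervals over time reached down to 42.5-fold in normal glucose and 27.6-fold in high glucose. The levels thus split the libraries neither by medium nor by time. Counting intervals on opposite sides of 1 at the 2 times occurred in 3.02% of all transcripts and in 6.20% of those with a mean count of 100 or more.

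NONRATT003363.2 shares 160 nt with the end of NONRATT003362.2 and runs 210 nt beyond it. It took 25.3% of the reads of the pair in high glucose after 24 h (95% Wilson interval 21.5 to 29.5) and 25.9% in normal glucose after 48 h (22.9 to 29.1). Where it was not listed, the Wilson interval reached up to 0.712% for 0 of 536 reads in normal glucose after 24 h. For 0 of 364 reads in high glucose after 48 h it reached up to 1.04%. The floor of 3 reads corresponds to shares of 0.560% and 0.824%, which are not upper limits of that kind. The tables give no strand and do not say how reads in the shared stretch were assigned. Per length, NONRATT003363.2 stood at 22.1 FPKM beside 13.9 for NONRATT003362.2 in high glucose after 24 h, and at 40.4 beside 24.7 in normal glucose after 48 h. Presence in some libraries and none in others was rare at such depth. Of the 2186 transcripts with 100 or more reads in a library, 31 had 0 in another. These are 0.313% of all 9894 transcripts, most of which never reached 100 reads and could not show the pattern. 7 of these 31 had 0 reads in both libraries that do not list NONRATT003363.2, and 2 of the 7, this transcript included, had 100 or more reads in both others.

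Summed, the 2 transcripts of this locus had 536 reads in normal and 451 in high glucose after 24 h, and 765 and 364 after 48 h. That is 45.1 and 28.8 CPM after 24 h, and 51.5 and 25.6 CPM after 48 h. The high glucose libraries again lay below the normal glucose libraries, 1.57-fold after 24 h (1.38 to 1.78) and 2.01-fold after 48 h (1.77 to 2.29). Keeping the neighbour apart or adding it therefore decided which time had the larger ratio, and not its direction. A locus is here a chain of listed transcripts whose genomic spans overlap. With counts summed per locus, edgeR gave a log2 change of -0.83, an unadjusted p of 0.00651 and an adjusted p of 0.611. The adjusted p of NONRATT003362.2 alone ran from 0.287 to 1 over its 10 alternatives.

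**Figure D2:**
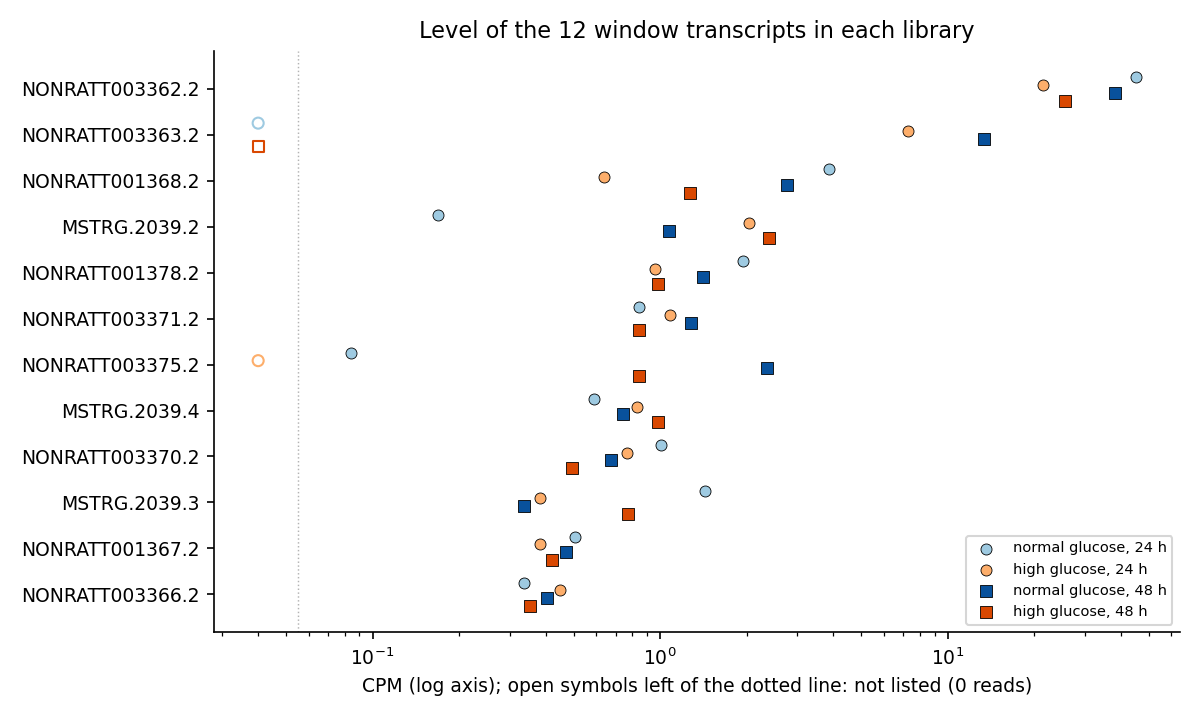
The x axis gives CPM on a log axis for each of the 12 members, ordered by mean CPM, with 1 symbol per library and open symbols for libraries that do not list the transcript. NONRATT003362.2 lies between 21.5 and 45.1 CPM, and NONRATT003363.2 is at 0 in 2 libraries and at 7.28 and 13.3 CPM in the others.

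NONRATT001368.2, a single block at lower coordinates than that locus, was the other member with lower levels in both high glucose libraries beyond counting error. It had 46 reads in normal and 10 in high glucose after 24 h, and 41 and 18 after 48 h, which are 3.87, 0.639, 2.76 and 1.27 CPM. The high glucose libraries did not overlap the normal glucose ones. The level in high glucose was 6.06-fold lower after 24 h (3.02 to 13.5) and 2.18-fold lower after 48 h (1.23 to 4.03). By edgeR its log2 change over both times was -1.82, at an unadjusted p of 0.0188 and an adjusted p of 0.828. Its neighbour in the same run, NONRATT001367.2, had between 6 and 7 reads in every library, and its interval after 24 h reached from 2.84 times as high to 4.93-fold lower in high glucose.

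The isoforms MSTRG.2039.2 (215928011 to 215934216, 349 nt), MSTRG.2039.3 (215931868 to 215934216, 349 nt) and MSTRG.2039.4 (215931868 to 215939791, 566 nt) overlap each other. MSTRG.2039.2 had 2 reads in normal and 32 in high glucose after 24 h, and 16 and 34 after 48 h, or 0.168, 2.04, 1.08 and 2.39 CPM. Both high glucose libraries lay above both normal glucose libraries. The level in high glucose was 12.1-fold higher after 24 h (3.10 to 105) and 2.22-fold higher after 48 h (1.19 to 4.31). It was the only member with intervals above 1 at both times, a pattern of 1.52% of all transcripts. By edgeR its log2 change over both times was 1.98, at an unadjusted p of 0.0370 and an adjusted p of 0.903. It was 1.04 without the normal glucose library after 24 h and 3.65 without that after 48 h. The locus of MSTRG.2039.2 held, beside the isoforms, NONRATT003370.2, NONRATT003371.2 and ENSRNOT00000079820, whose span links them. Summed over this whole locus, the log2 change was 0.46 (edgeR, unadjusted p of 0.147, adjusted p of 0.868).

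The other isoforms did not share this pattern. MSTRG.2039.3 had 17 reads in normal and 6 in high glucose after 24 h, and 5 and 11 after 48 h, so that it was 3.73-fold lower in high glucose after 24 h (1.40 to 11.6) and 2.30-fold higher after 48 h, where the interval included 1 (0.736 to 8.43). MSTRG.2039.4 had between 7 and 14 reads, and its intervals included 1 at both times. With MSTRG.2039.1, which had 0, 1, 1 and 11 reads and was no member, the family summed to 26 reads in normal and 52 in high glucose after 24 h, and to 33 and 70 after 48 h. The ratio of these sums was 1.52 after 24 h (0.931 to 2.53) and 2.22 after 48 h (1.44 to 3.46). The make-up of the family in normal glucose after 24 h stood apart. There MSTRG.2039.2 took 7.69% of the family's reads (Wilson interval 2.14 to 24.1) and MSTRG.2039.3 65.4% (46.2 to 80.6). In the remaining libraries MSTRG.2039.2 took 48.5% to 61.5% and MSTRG.2039.3 11.5% to 15.7%. The small sum of 26 reads and the assignment of reads between overlapping isoforms limit this comparison.

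The other members of the third run had no ratio between media or times beyond counting error. NONRATT003370.2 (215956455 to 215979482, 628 nt) had between 7 and 12 reads per library, NONRATT003371.2 (215969609 to 215979455, 407 nt) between 10 and 19, and NONRATT003366.2 (215881010 to 215885904, 666 nt) between 4 and 7. At 48 h the ratios of NONRATT003366.2 and NONRATT001367.2 lay so near 1 that another scaling of the libraries changed their direction. NONRATT001378.2 had 23 reads in normal and 15 in high glucose after 24 h, and 21 and 14 after 48 h. It was 2.02-fold lower in high glucose after 24 h, with an interval of 1.01 to 4.16 that included 1 under each of the 3 other scalings tried, and 1.44-fold lower after 48 h (0.697 to 3.05).

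NONRATT003375.2, the last member of the window, was read almost only after 48 h. It had 1 read in normal glucose and none in high glucose after 24 h, and 35 and 12 reads after 48 h, or 2.36 and 0.844 CPM. In normal glucose the level after 48 h was 28.0-fold that after 24 h (4.70 to 1136.5). In high glucose it was 4.40-fold higher against the floor of 3 reads, and the exact counting interval reached down to 3.06-fold. At 48 h it was 2.79-fold lower in high than in normal glucose (1.42 to 5.91). At 24 h both libraries were at or under the floor of 3 reads, so no glucose ratio is given. It met the mean count rule through its 48 h libraries alone, so the test of time draws on the libraries that made it a member. Time had an unadjusted p of 0.00194 and an adjusted p of 0.376 in edgeR over the 9894 transcripts. When transcripts of any count were tested its adjusted p was 0.0366, where 71 of 17934 transcripts (0.396%) passed, and over its 8 alternatives with a value the adjusted p ran from 0.0366 to 0.903. Both media showed this direction.

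**Figure D3:**
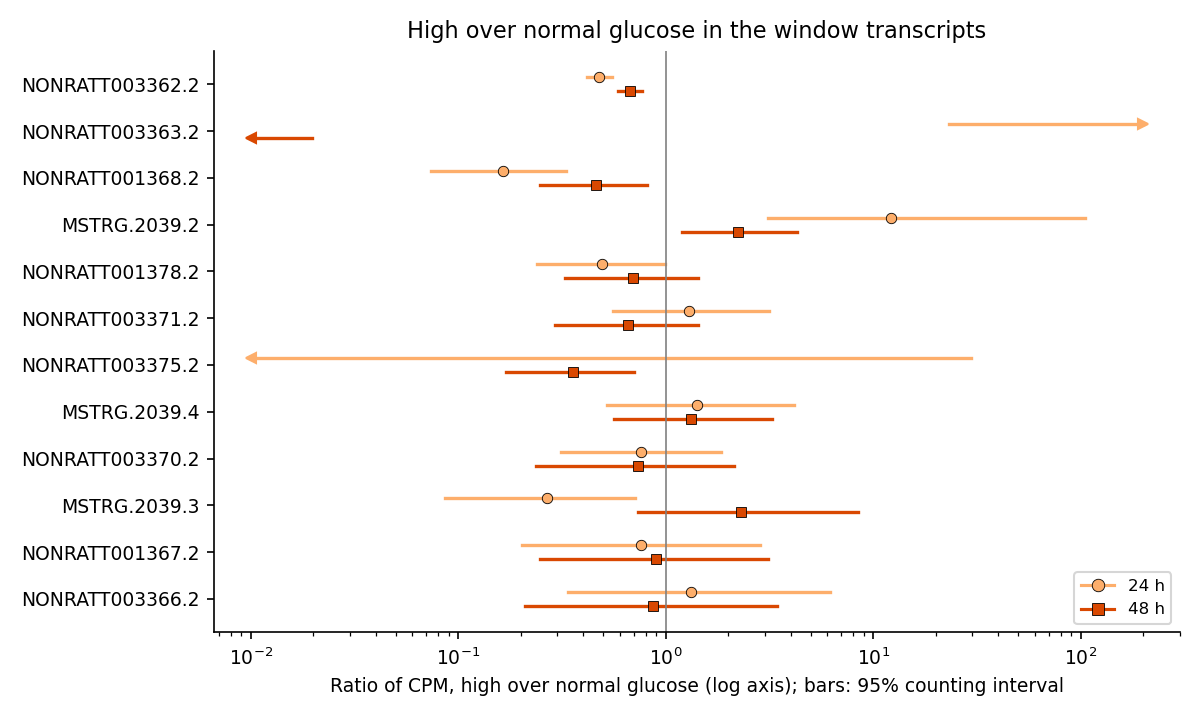
The x axis gives the ratio of CPM in high over normal glucose on a log axis for each member, with a bar for the 95% counting interval after 24 h and after 48 h, an arrowhead where the interval runs beyond the axis, and no symbol where a library has 0 reads. NONRATT003362.2 and NONRATT001368.2 lie below 1 at both times, MSTRG.2039.2 lies above 1 at both, and NONRATT003363.2 changes sides.

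The reads of the 12 members summed to 664 in normal and 569 in high glucose after 24 h, and to 936 and 497 after 48 h. Scaled, the sums were 55.9 and 36.3 CPM after 24 h, and 63.0 and 34.9 CPM after 48 h, so both high glucose libraries lay below both normal glucose libraries. As a part of all lncRNA counts the window took 0.0784% (95% Wilson interval 0.0727 to 0.0846) in normal and 0.0532% (0.0490 to 0.0578) in high glucose after 24 h. At 48 h it took 0.0870% (0.0816 to 0.0928) and 0.0549% (0.0503 to 0.0600). The sum in high glucose was 0.650 times that in normal glucose after 24 h (0.580 to 0.728) and 0.554 times after 48 h (0.496 to 0.619). With TMM factors the value after 48 h was 0.635. From 24 h to 48 h the sum was 1.13 times as high in normal glucose (1.02 to 1.25) and 0.961 times as high in high glucose (0.850 to 1.09).

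**Figure D4:**
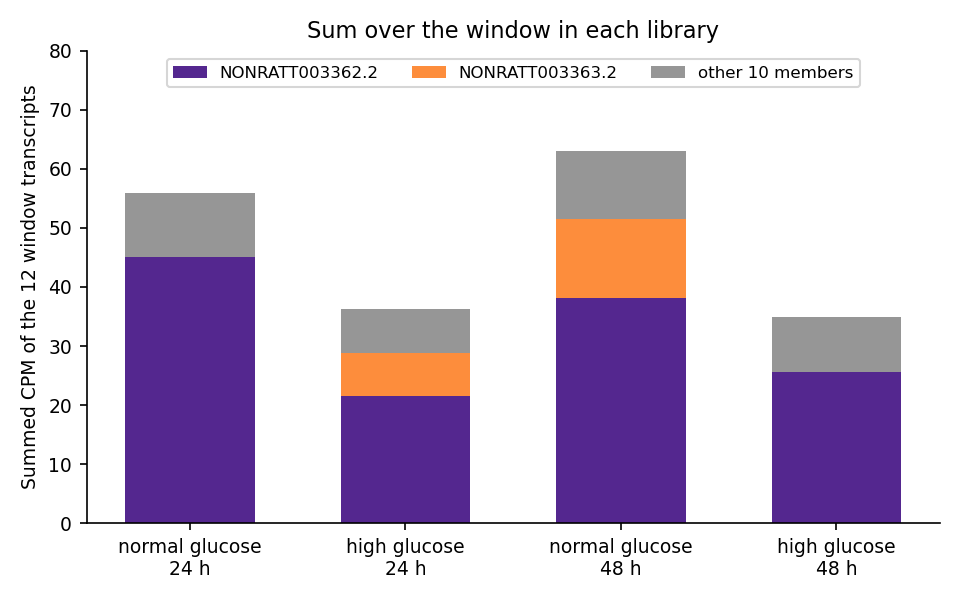
The bars give the summed CPM of the 12 members in each library, split into NONRATT003362.2, NONRATT003363.2 and the other 10. The sums of 36.3 and 34.9 CPM in high glucose lie below those of 55.9 and 63.0 CPM in normal glucose, and NONRATT003363.2 adds to 2 bars only.

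These sums drew most of their reads from the locus of NONRATT003362.2. Without that transcript the sum was 1.38 times as high in high glucose after 24 h (1.10 to 1.72), the opposite direction, and 0.376 times after 48 h (0.306 to 0.460), and NONRATT003363.2 held 49.1% and 53.7% of what remained in the libraries that list it. Without NONRATT003363.2 the ratios were 0.520 after 24 h and 0.703 after 48 h, and the ratio of 48 h over 24 h in normal glucose turned to 0.889 (0.799 to 0.988). The 10 members outside the locus summed to 0.699 times as much in high glucose after 24 h (0.540 to 0.905) and 0.812 times after 48 h (0.643 to 1.02).

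The surroundings of the window had other ratios. Over the 1194 other transcripts of chromosome 1 the sum in high glucose was 0.962 times that in normal glucose after 24 h (0.953 to 0.970) and 0.851 times after 48 h (0.844 to 0.858). The stretch of the same length before the window held 3 transcripts with a mean count of 5 or more, with ratios of 1.21 after 24 h (1.01 to 1.44) and 0.535 after 48 h (0.435 to 0.655). The stretch after it held 6, with 1.13 (1.02 to 1.25) and 1.01 (0.910 to 1.13). At 24 h the interval of the window overlapped none of these, while after 48 h it overlapped that of the stretch before it. Such sums follow their most abundant transcript, which gave between 59.2% and 80.7% of the reads of the window. These are counting intervals, and a difference between regions over cultures was not tested.

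On log2 (CPM + 1), 4 of the 12 members differed at least 2-fold between media after 24 h, beside 4.35% of all transcripts. NONRATT003363.2 and MSTRG.2039.2 were higher in high glucose (2.12% of all transcripts), and NONRATT003362.2 and NONRATT001368.2 lower (2.22%). NONRATT003362.2 lay just past 2-fold at a log2 ratio of -1.03, and with TMM factors (-0.98), size factors (-0.98) or libraries set to the same sum (-0.97) it was not counted, which left 3 members. At 48 h it was 1 member, NONRATT003363.2, which was lower, beside 5.97% of all transcripts in either direction and 3.61% lower. Adding 1 CPM shrinks the ratios of low members. NONRATT001368.2, MSTRG.2039.2, MSTRG.2039.3 and NONRATT003375.2 were past 2-fold in plain CPM at 48 h and were not counted. From 24 h to 48 h in normal glucose, NONRATT003363.2 and NONRATT003375.2 were at least 2-fold higher (1.92% of all transcripts, 4.27% in either direction). In high glucose NONRATT003363.2 alone was at least 2-fold lower (3.68%, 5.82% in either direction). When counts were summed per locus the window held 7 loci, and the numbers became 1 after 24 h (NONRATT001368.2), 0 after 48 h, 1 in normal glucose and 0 in high glucose. The shares over all loci are not given here, so these numbers are not set against the whole data set. The locus of NONRATT003362.2, 2.01-fold lower after 48 h in plain CPM, fell short of 2-fold once 1 CPM was added. NONRATT003363.2 and NONRATT003362.2 overlap, as do the MSTRG isoforms, so the members are not independent.

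Counting intervals excluded 1 for 6 members after 24 h, 4 lower and 2 higher in high glucose, beside 15.7% of all transcripts (9.11% lower and 6.63% higher). Under each of the other scalings it was 5 members, without NONRATT001378.2. At 48 h the intervals excluded 1 for 5 members, 4 lower and 1 higher, beside 26.8% (18.7% lower and 8.09% higher). The median log2 ratio of the members was -0.12 after 24 h and -0.22 after 48 h, beside -0.03 and -0.11 over all transcripts. With TMM factors the median over all transcripts after 48 h moved from -0.11 to 0.00, so ratios after 48 h stand relative to that shift. The ratios of 6 members lay below 1 at both times, beside 35.4% of all transcripts, 2 above 1 at both (18.2%) and 4 on opposite sides (45.9%). The 6 include NONRATT003375.2, with 1 read in normal and none in high glucose after 24 h, and NONRATT001367.2, whose direction after 48 h turned with the scaling.

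**Figure D5:**
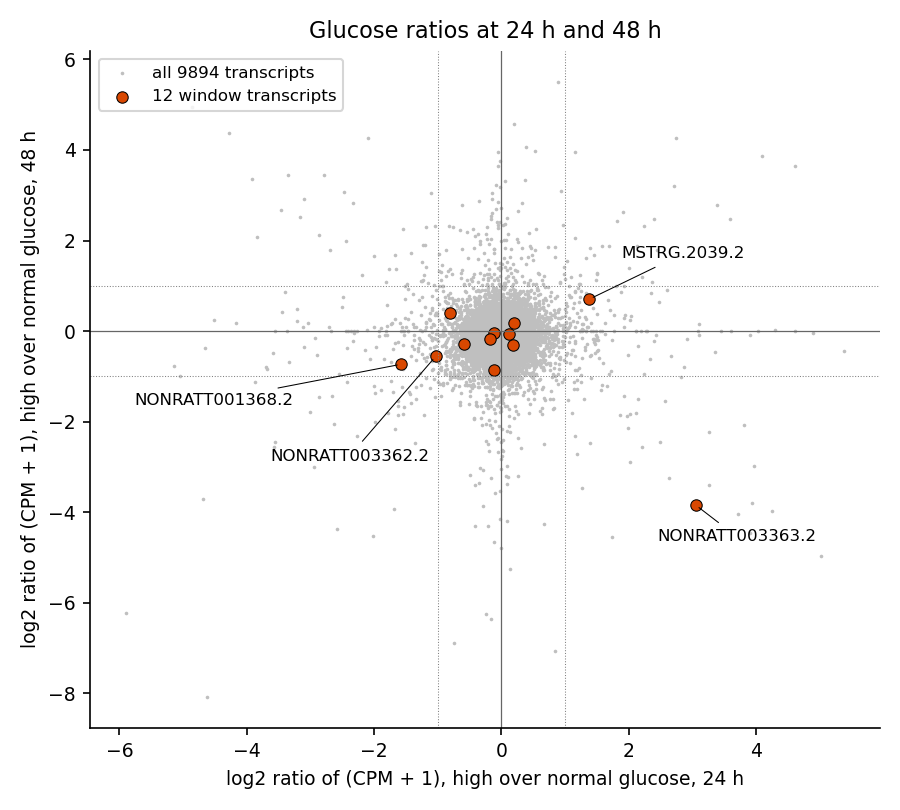
Each point is a transcript, with its log2 ratio of (CPM + 1) in high over normal glucose after 24 h on the x axis and after 48 h on the y axis. The 12 members are drawn over all 9894 transcripts, and dotted lines mark 2-fold. Most members lie in the central cloud, NONRATT001368.2 and NONRATT003362.2 to the lower left of it, MSTRG.2039.2 to the upper right, and NONRATT003363.2 at 3.05 and -3.84.

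In the edgeR fit over both times, 0 members passed the adjusted threshold of 0.05 for medium, where 0.0303% of all transcripts did. At an unadjusted p under 0.05, 1 member was higher and 2 were lower in high glucose, beside 5.00% of all transcripts. For time, 0 members passed the adjusted threshold, beside 0.0303%. At an unadjusted p under 0.05, 1 member, NONRATT003375.2, was higher, beside 4.72%. It met the mean count rule through its 48 h libraries alone, so its p for time is no independent support. DESeq2, among members it gave an adjusted p, and limma also called 0 for either term. The fit had 1 residual degree of freedom, and the times stood in for replicates.

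The 8 listed transcripts under the threshold had mean counts between 0.75 and 4.25. The nearest below it was ENSRNOT00000079820 (215908373 to 215986959, 1008 nt) with a mean of 4.25 reads, whose span contains the MSTRG isoforms, and the nearest above it were NONRATT003366.2 with 5.50 and NONRATT001367.2 with 6.25. Adding all 8 left the ratio of the window's sums at 0.651 after 24 h and 0.573 after 48 h.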

How the data were processed

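Libraries of total RNA were made with a strand-specific kit, and an Illumina HiSeq read them, per the labels' protocols. TopHat2 2.1.0, Cufflinks and the builds rn6 and Rnor_6.0 appear in the submitters' processing notes without a stated use. What tool counted the reads, and whether it used strand, was not given in the sources used here. Each table lists lncRNA transcripts with at least 1 read, and gives the deposited read counts. The authors also deposited FPKM values for the same transcripts. A length column came with 1 library alone, so missing lengths were solved from count, FPKM and library total. That total was taken as the median over transcripts of the value linking count, length and FPKM. Over all listed transcripts, counts summed to between 846946 and 1075428 per library.

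Samples were grouped by title. Members and lists were chosen with earlier results of these data known. Transcripts with a mean count of 5 or more were tested together by edgeR 4.0.16 (quasi-likelihood, terms for medium and time, recovered totals as library sizes). Alternatives were other scalings (TMM, DESeq2 1.42.0 size factors, same sum), a pseudocount of 0.5, other filters, sums per locus, FPKM, DESeq2, limma 3.58.1, 1 term alone, and each library left out. The rule named the 10 members highest in mean CPM, members 2-fold apart, and those past the adjusted threshold. The floor was 3 reads. Without molecular identifiers, PCR reads may repeat a molecule, and both intervals and floors describe counting error alone. Nothing in the labels says that libraries came from separate cultures.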

Additional observations from a re-analysis of the deposited data

Results flagged for a closer look

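The glucose ratio of NONRATT003363.2 pointed in opposite directions at the 2 times. With a floor of 3 reads for the unlisted library, high glucose exceeded normal glucose 28.8-fold after 24 h. After 48 h normal glucose exceeded high glucose 63.2-fold. The exact counting intervals of these ratios reached down to 23.1-fold after 24 h and 50.9-fold after 48 h. Each time has 1 library per medium, so the difference between the times was not tested. Counting intervals on opposite sides of 1 at both times were found for 3.02% of all 9894 transcripts and for 6.20% of those with a mean count of 100 or more. Of the 4 members with ratios on opposite sides of 1, NONRATT003363.2 was the only one whose counting intervals excluded 1 at both times.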

How the results depend on the processing

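The numbers of members at least 2-fold apart depended on how low transcripts and overlapping ones were treated and, after 24 h, on the scaling: 3 with each other scaling (4 otherwise) and with the FPKM filter, and 5 with a pseudocount of 0.5 or FPKM values. Summing counts per locus gave 1 after 24 h (4 when kept apart), 0 after 48 h (from 1), 1 for time in normal glucose (from 2) and 0 for time in high glucose (from 1). A pseudocount of 0.5 gave 2 after 48 h, 4 for time in normal glucose and 2 for time in high glucose. For time in normal glucose the FPKM filter gave 1 and FPKM values gave 4. The shares of all transcripts under these alternatives are not given here. The numbers therefore show only how the counts of members moved. The window's sum without its most abundant member after 24 h was 10.8 CPM (normal glucose) and 14.8 CPM (high glucose), and after 48 h 24.8 and 9.35 CPM. The ratio of high over normal glucose was then 1.38 after 24 h, reversed, and 0.376 after 48 h, and that of 48 h over 24 h was 2.30 in normal and 0.631 in high glucose. Leaving out NONRATT003363.2, chosen after seeing the data, gave 29.1 CPM in high glucose after 24 h and 49.7 CPM in normal glucose after 48 h, ratios of 0.520 and 0.703 for glucose, and 0.889 (reversed) and 1.20 for time. In high glucose after 48 h the sum was 38.2 CPM with TMM factors and 38.3 CPM with size factors. The glucose ratio after 48 h was then 0.635 and 0.638, and 0.631 where all libraries were given the same sum. In edgeR the member calls for medium were 0 under every alternative tried, and for time 1 (NONRATT003375.2) with no filter on counts (71 of all 17934 transcripts) and 0 under the others, those that left out a library included. The fits with a library left out had 1 term, and a lone library was assumed to vary like the others. NONRATT003375.2 was a member through its 48 h libraries alone, so its call for time is no independent support. Depth limits the members with under 20 reads per library, whose intervals span several-fold. No paired analysis was possible because each group has 1 library and the labels give no replicate numbers; the term for time or medium takes that place.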
